A study of Homo sapiens with 14 samples.

Results

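Interferon-stimulated genes are the genes whose transcription interferons raise, and 34 of them were followed here in HepG2 cells after transfection of the microRNA miR-124 or of a negative control. The members were picked by gene symbol in the platform annotation, and where a gene had several probe sets, the one with the highest mean over all 14 arrays was used. Of the 34 genes, 33 had a probe set with their symbol alone (STAT2 was not analysed here), out of 19775 genes measured. HepG2 is an established human hepatoma cell line, and both arms were HepG2 cells that had received a transfection. Each arm had 1 array of total RNA at 4, 8, 16, 24, 32, 72 and 120 h after transfection, which made 7 pairs of equal time. The dose and chemical form of the transfected RNAs are not given in the sources used here, and untransfected or mock-transfected cells were not analysed here. A response common to both transfections and already complete at 4 h could therefore not be measured, whereas a later rise in either arm and any difference between the arms could. Of 8 hepatocyte markers measured, all 8 passed the signal filter given below, and the log2 of their summed signal lay between 16.2 and 16.3 in the miR-124 arm and between 16.2 and 16.5 in the control arm.

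Cells sense foreign RNA with Toll-like receptors in endosomes and with RIG-I-like helicases and the kinase PKR in the cytoplasm, and adaptor proteins pass the signal on to transcription factors that switch on interferon genes. Secreted type I and type III interferons bind their receptors on the same or neighbouring cells, and the kinases JAK1 and TYK2 then activate transcription factors, IRF9 among them. These bind the interferon-stimulated response element (ISRE) in the promoters of their target genes, while GAS elements serve mainly the response to interferon gamma. Double-stranded small RNAs can start this response in some cells, which is the question asked of both arms here.

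The promoters of ISG15, IFIT1 and OAS1 are printed because they show members with and without a match to the ISRE core, as searched here, around the start site. Each runs 5′ to 3′ on the gene's strand (+ in all 3), from 250 bases before to 50 bases after the start, in RefSeq's GRCh38.p14 annotation, with every match to the ISRE core in capitals. ISG15 lies at chr1:1013247-1013546, IFIT1 at chr10:89392373-89392672 and OAS1 at chr12:112906712-112907011.
ISG15: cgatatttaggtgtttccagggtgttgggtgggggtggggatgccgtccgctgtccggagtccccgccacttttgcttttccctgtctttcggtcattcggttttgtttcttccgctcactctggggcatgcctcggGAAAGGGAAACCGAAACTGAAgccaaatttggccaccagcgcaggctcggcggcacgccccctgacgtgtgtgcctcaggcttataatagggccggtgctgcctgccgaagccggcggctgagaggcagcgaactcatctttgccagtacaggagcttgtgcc
IFIT1: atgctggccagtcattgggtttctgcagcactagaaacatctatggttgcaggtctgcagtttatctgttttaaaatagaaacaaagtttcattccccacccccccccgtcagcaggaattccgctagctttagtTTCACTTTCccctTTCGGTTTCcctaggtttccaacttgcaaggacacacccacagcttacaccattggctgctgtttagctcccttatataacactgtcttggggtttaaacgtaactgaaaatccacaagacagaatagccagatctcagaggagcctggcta
OAS1: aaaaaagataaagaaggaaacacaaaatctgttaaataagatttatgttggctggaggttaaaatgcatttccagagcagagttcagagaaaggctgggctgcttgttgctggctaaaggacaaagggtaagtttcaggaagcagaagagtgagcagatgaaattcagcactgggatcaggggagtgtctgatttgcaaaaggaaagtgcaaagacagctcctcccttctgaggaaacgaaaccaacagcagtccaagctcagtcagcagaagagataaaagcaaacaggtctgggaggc
The ISRE core was searched as GAAANNGAA and the GAS element as TTCNNNGAA, on both strands and with overlapping matches counted. ISG15 held 3 ISRE matches, which began 113, 107 and 101 bases before the start, and IFIT1 held 2, which began 115 and 102 bases before it. OAS1 held no match in this window. Its sequence does hold the letters gaaacgaa, in which a single base parts GAAA from GAA. The search for GAAANNGAA cannot match that spacing, so a missing match does not show a missing element. A promoter of this length was given for 28 of the 34 members, and 19 of the 28 (67.9%) held an ISRE match, against 2264 of all 27305 promoters (8.29%). The GAS letters were in 8 of the 28 (28.6%), against 2152 of all promoters (7.88%). These matches describe the letters only.

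The values are log2 signals from RMA, a method that puts all arrays on a common scale, so a change in total mRNA per cell would not show. A gene was tested if its mean log2 signal exceeded 6.19, the median over probe sets, and 13137 genes, 21 members among them, passed. IFIT1, with a mean of 6.19, was just inside this limit and CXCL10, with 6.01, just outside. The 12 members below it were IFI16, IFI27, IFI44, IFI44L, IRF7, RSAD2, XAF1, CXCL10, TLR3, DDX60, SAMD9 and TRIM22. Times were grouped into an early (4 and 8 h), a middle (16, 24 and 32 h) and a late window (72 and 120 h), and a gene was called at a Benjamini-Hochberg adjusted p below 0.05 over all genes tested, with limma. Errors after ± are standard errors of the fit. Whether separate dishes of cells stood behind the arrays is not given in the labels. Within an arm no time had a replicate array, so the times of a window served as replicates, as did all times in the comparison over all pairs. P-values therefore measure the spread between arrays of different times. That spread may be technical in part, and it also holds any real change over time among the arrays grouped together. The number of arrays limits the precision. A bulk RNA sample does not separate fewer responding cells from less RNA per cell.

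Up to 32 h, none of the 33 measured members stood 2-fold above its own 4 h level in either arm. The largest rise over the 4 h array of the same arm was 0.34, 0.22, 0.38 and 0.35 log2 in control-transfected cells at 8, 16, 24 and 32 h. In miR-124-transfected cells it was 0.35, 0.43, 0.39 and 0.54 log2. The median change of the 33 members at 32 h was −0.01 log2 in the miR-124 arm and 0.01 in the control arm. Between the early and middle windows limma called 0 of the 21 tested members in the control arm, where 0% of all genes tested were called, and at an unadjusted p below 0.05 it counted 2 members higher and 0 lower, against 2.72% and 3.76% of all genes tested. In the miR-124 arm 0 of 21 were called, against 6.3% of all genes tested, and the unadjusted counts were 2 higher and 1 lower, against 12.9% and 8.49%.

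**Figure D1:**
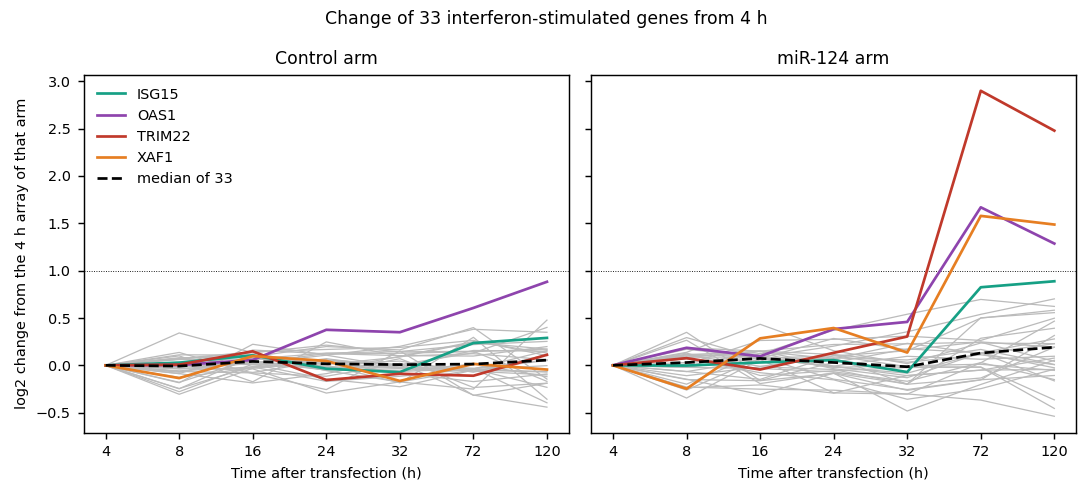
Change in log2 signal from the 4 h array of the same arm (y axis) against hours after transfection (x axis), with the control arm and the miR-124 arm in panels of their own; each line is 1 of the 33 measured members, and the dashed line is their median, with times evenly spaced. Lines stay within 0.54 of 0 on the upward side until 32 h in both arms, and TRIM22, OAS1 and XAF1 pass 1 (a 2-fold rise) at 72 and 120 h in the miR-124 arm.

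In control-transfected cells 2 members, OAS1 and ISG20, were called higher in the late than in the early window, and none lower. Of the 13137 genes tested 397 were called higher and 483 lower, which made 6.7% for both directions together. OAS1, an oligoadenylate synthetase that makes the activator of the antiviral nuclease RNase L, rose by 0.74 ± 0.16 log2 (1.67-fold, adjusted p = 0.0222). ISG20, an exonuclease that degrades single-stranded viral RNA, rose by 0.46 ± 0.09 (1.37-fold, adjusted p = 0.0161). The control OAS1 signal was 6.82 log2 at 4 h, 7.42 at 72 h and 7.70 at 120 h. Without the 24 h pair 0 members were called in this comparison. The count over all genes is not given for that fit, so a change in the members cannot be told from one in all genes. Without the 4 h, 8 h, 72 h or 120 h pair a window held 1 array of the arm, so no count is taken from those fits here. The largest control change from 4 h to 120 h among the 33 members was this 0.88 log2 of OAS1, so no member doubled in the control arm at any time.

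In miR-124-transfected cells 8 of the 21 tested members were called higher in the late than in the early window and 0 lower, against 18.9% of all genes tested called higher and 17.5% called lower. OAS1 rose by 1.38 ± 0.16 log2 (2.61-fold, adjusted p = 8.5e-05) and the ubiquitin-like modifier ISG15 by 0.86 ± 0.08 (adjusted p = 2.51e-05). The transcription factor subunit IRF9 rose by 0.67 ± 0.09 (adjusted p = 0.000189) and UBE2L6, the enzyme that carries ISG15 to its target proteins, by 0.56 ± 0.11 (adjusted p = 0.00201). OAS3, MX1, MX2 and EIF2AK2 rose by 0.61 ± 0.15, 0.58 ± 0.12, 0.38 ± 0.10 and 0.30 ± 0.11. Over 12 alternatives EIF2AK2 kept the call in 5, MX2 in 10 and OAS3 in 11. The EIF2AK2 call was lost without the 24 h pair. In that fit 2078 of all genes tested were called higher and 1853 lower, against 2488 and 2304 with all pairs. Without the 4 h pair the early window held 1 array of the arm, so no count is taken from that fit here. The control arm's own late minus early value was 0.25 ± 0.08 for ISG15, which missed the threshold (adjusted p = 0.0902).

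Set against the control of equal time, the miR-124 arm was higher at 72 and 120 h in OAS1, OAS3, ISG15, EIF2AK2, MX1, MX2, IRF9 and IFIT5, by 1.27- to 1.82-fold, and lower in IFI35 and ISG20. Of the 21 tested members, 8 were called higher in the late window and 2 lower, where 16.4% of all genes tested were called higher and 12.6% lower. The median late ratio of the 21 was 0.26 log2, against −0.01 over all genes tested, and 16 of the 21 ratios lay above 0. Of the 8 members called higher, 7 were also called higher in the late window within the miR-124 arm, a comparison that uses the same late miR-124 arrays. The exception was IFIT5. A fit of the 4 late arrays alone, in which the spread came from 2 pairs, called 0 members, with adjusted p = 0.0678 for ISG15, 0.0807 for OAS1 and 0.0833 for OAS3, the lowest of the 3 being that of ISG15. Without the 24 h pair 6 members were called, and those lost were IFIT5, MX1, ISG20 and IFI35. Of all genes tested 1677 were then called higher and 1184 lower.

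**Figure D2:**
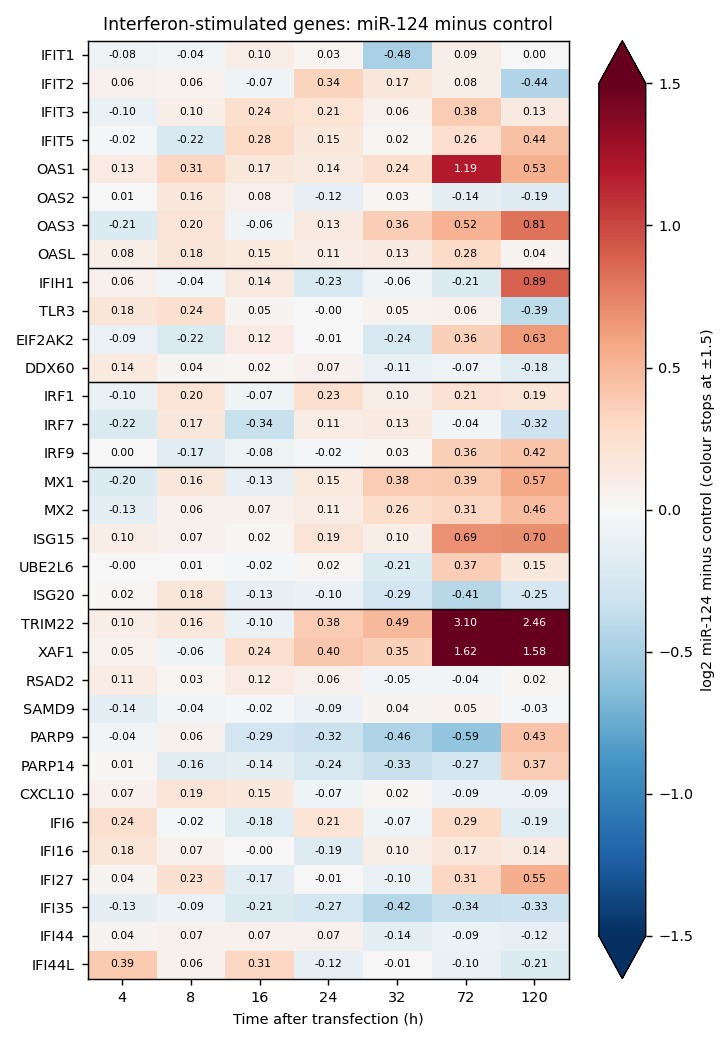
Log2 ratio of the miR-124 array to the control array of equal time (colour) for the 33 measured members (rows) at 7 times in hours (columns). The 2-fold ratios are those of TRIM22, XAF1 and OAS1 at 72 h and of TRIM22 and XAF1 at 120 h, and the median of the 33 ratios was 0.17 at 72 h and 0.14 at 120 h, against 0.02 at 4 h.

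Among the sensors and effectors of double-stranded RNA, EIF2AK2, OAS1 and OAS3 were called. Whether probe sets of families with near-identical members, such as the OAS, IFIT and HLA genes, also take up signal from a relative was not tested. OAS1 had a lowest, median and highest log2 signal of 6.95, 7.33 and 8.62 in the miR-124 arm and of 6.82, 7.17 and 7.70 in the control arm. The miR-124 arm was higher in 7 of 7 pairs, with 8.62 against 7.42 at 72 h and 8.23 against 7.70 at 120 h. The late arms did not overlap, and the late ratio was 0.86 ± 0.14 log2 (1.82-fold, adjusted p = 0.0039). A further OAS1 probe set gave late ratios of 0.79 and 0.52.

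OAS3, another synthetase of the same family, ranged over 8.07, 8.45 and 8.77 (lowest, median and highest) in the miR-124 arm and 7.89, 8.25 and 8.31 in the control arm. Its late ratio was 0.66 ± 0.14 (1.58-fold, adjusted p = 0.0094), and its control signal at 120 h, 7.89, was the lowest of all 14 arrays. EIF2AK2, the kinase PKR that halts translation when it binds double-stranded RNA, ranged over 8.96, 9.15 and 9.43 against 8.80, 9.16 and 9.26. Its arms overlapped over the whole course and separated at 72 and 120 h, where the ratio was 0.50 ± 0.11 (1.41-fold, adjusted p = 0.0139). The control signal of EIF2AK2 was below its 4 h level by then, at −0.31 log2 at 72 h and −0.44 at 120 h, against 0.13 and 0.28 in the miR-124 arm. One of its other probe sets gave −0.03 and 0.29 as late ratios and the remaining one 0.38 and 0.31, and the EIF2AK2 call was lost without the 120 h pair.

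OAS2 and OASL, the remaining members of that family, were not called in the late window. OASL was higher in the miR-124 arm in 7 of 7 pairs by a mean of 0.14 ± 0.04 log2 (adjusted p = 0.105 over all times), but its other probe set gave late ratios of −0.11 and −0.17. OAS2 gave −0.14 and −0.19 with the probe set used, 0.10 and 0.09 with another and 0.67 and 0.13 with the dimmest. IFIH1, the RNA helicase MDA5, had a late ratio of 0.34 ± 0.22 that missed the threshold (adjusted p = 0.296), made of −0.21 at 72 h and 0.89 at 120 h, and its 2 dimmer probe sets gave ratios from −0.31 to −0.02. TLR3, the endosomal receptor for double-stranded RNA, and the helicase DDX60 were below the signal limit, and the late ratios of the probe sets used lay between −0.39 and 0.06.

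The modifier ISG15 and the enzyme UBE2L6 belong to the same conjugation pathway, and the late call for ISG15 was lost in 1 of 13 alternatives. ISG15 signals were 8.75, 8.86 and 9.71 (lowest, median and highest) in the miR-124 arm and 8.65, 8.75 and 9.01 in the control arm. The pair values were 9.65 against 8.96 at 72 h and 9.71 against 9.01 at 120 h, and the miR-124 array was the higher in 7 of 7 pairs. The late ratio was 0.69 ± 0.08 (1.62-fold, adjusted p = 0.000889), and the 4 h to 32 h ratios, between 0.02 and 0.19, were all smaller than either late ratio. UBE2L6 ranged over 8.13, 8.39 and 8.89 against 8.26, 8.39 and 8.73, and its late ratio of 0.26 missed the threshold (adjusted p = 0.0734), with a control signal that stood 0.40 above its own 4 h level at 120 h.

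**Figure D3:**
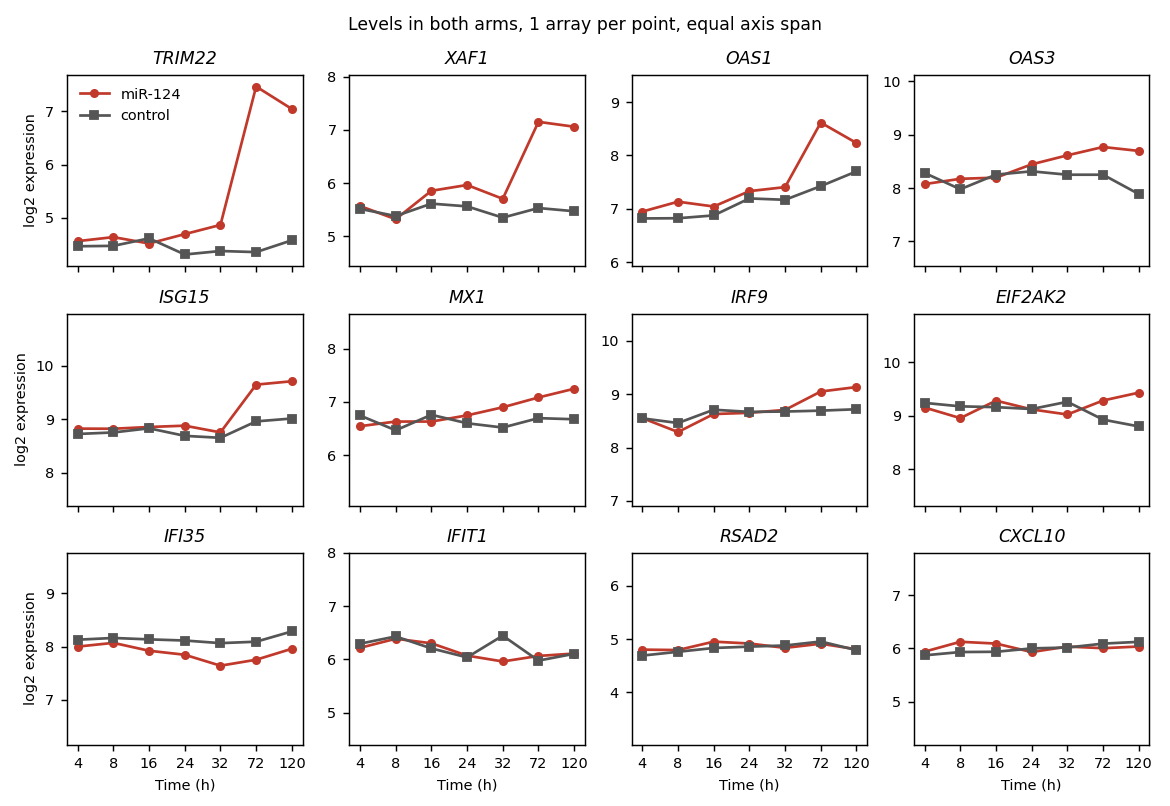
Log2 signal (y axis) against hours after transfection (x axis) in the miR-124 and control arms, 1 array per point, for 12 members, with times evenly spaced and the same span of the y axis in every panel. In the panel of OAS1 the miR-124 points reach 8.62 at 72 h against 7.42 in the control, and in the panel of ISG15 both late miR-124 points, 9.65 and 9.71, lie above the highest control point of 9.01.

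The dynamin-like GTPases MX1 and MX2, which block virus replication, were both called. MX1 ranged over 6.54, 6.75 and 7.25 in the miR-124 arm and 6.47, 6.67 and 6.76 in the control arm, with a late ratio of 0.48 ± 0.14 (1.39-fold, adjusted p = 0.0339). MX2 ranged over 8.48, 8.75 and 8.98 against 8.43, 8.53 and 8.68, with a late ratio of 0.38 ± 0.09 (1.30-fold, adjusted p = 0.0184). Both late miR-124 arrays of either gene lay above all 7 control arrays. The MX1 call was lost without the 24 h, 72 h or 120 h pair and the MX2 call without the 120 h pair.

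Of the IFIT proteins, which bind viral RNA ends, IFIT5 was called higher, and IFIT1, IFIT2 and IFIT3 were not. IFIT5 ranged over 7.84, 7.99 and 8.27 in the miR-124 arm and 7.63, 7.84 and 8.20 in the control arm, and its highest arrays were those of 16 h and 8 h. From the early to the late window its mean went from 7.91 to 8.07 in the miR-124 arm. In the control arm it fell from 8.03 to 7.72, so its late ratio also holds a lower control signal. The late IFIT5 ratio was 0.35 ± 0.10 (1.27-fold, adjusted p = 0.0348), a call lost in 8 of 13 alternatives, and a further IFIT5 probe set gave 0.41 and 0.12. IFIT1 signals ran from 5.96 to 6.39 in the miR-124 arm and from 5.98 to 6.44 in the control arm, and the late IFIT1 ratio was 0.05 ± 0.14. IFIT3 had a late ratio of 0.26 ± 0.10 that missed the threshold (adjusted p = 0.0941), while a further IFIT3 probe set gave 0.58 at 72 h and 0.92 at 120 h. The probe sets of IFIT2 differed in sign at 120 h, −0.44 for the one used and 0.41 for the other.

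Of the transcription factors, IRF9, which recognises the ISRE, was called. IRF9 ranged over 8.29, 8.65 and 9.13 in the miR-124 arm and 8.46, 8.67 and 8.72 in the control arm. The 2 late miR-124 arrays, 9.05 and 9.13, were the highest of the 14, and the late ratio was 0.39 ± 0.08 (1.31-fold, adjusted p = 0.0113). IRF1, a factor that acts on its own after interferon gamma, had late ratios of 0.21 and 0.19 and was not called. IRF7, which amplifies interferon transcription, was below the signal limit with ratios of −0.04 and −0.32.

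IFI35 and ISG20 were called lower in the late window. IFI35, a binding partner of NMI, ranged over 7.64, 7.92 and 8.07 in the miR-124 arm and 8.07, 8.13 and 8.29 in the control arm. The arms met at one edge only, where the highest miR-124 and the lowest control signal were both 8.07, and the miR-124 array was the lower in 7 of 7 pairs, with a late ratio of −0.33 ± 0.08 (1.26-fold lower, adjusted p = 0.0216), a call lost without the 24 h or 72 h pair. ISG20 ranged over 7.30, 7.40 and 7.48 against 7.21, 7.59 and 7.77, and its late ratio was −0.33 ± 0.09 (1.26-fold lower, adjusted p = 0.03). The rise of ISG20 over the 4 h level was 0.38 and 0.35 in the control arm at 72 and 120 h, against −0.05 and 0.08 in the miR-124 arm. A further ISG20 probe set gave late ratios of −0.48 and −0.34. Without the 24 h or 72 h pair the ISG20 call was lost too.

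PARP9, which forms a complex with a ubiquitin ligase in interferon signalling, had one of the 6 largest overall ratios of the tested members in size, at −0.17 ± 0.11 log2, and was not called (adjusted p = 0.368). It ranged over 6.90, 7.01 and 7.48 in the miR-124 arm and 6.95, 7.29 and 7.60 in the control arm. At 72 h the PARP9 ratio stood at −0.59 and at 120 h it stood at 0.43, and the related PARP14 gave −0.27 and 0.37. The late ratios of the probe sets used thus changed sign, but their further probe sets gave −0.15 and −0.10 for PARP9 and 0.12 and −0.24 for PARP14, so the sign change was not a property of all probe sets. Neither gene was called in any comparison.

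TRIM22 and XAF1 showed the largest late ratios of all 33 measured members, although both were too dim on average to enter the test above. TRIM22, a ubiquitin ligase with antiviral activity, had a lowest, median and highest signal of 4.52, 4.70 and 7.46 in the miR-124 arm and 4.31, 4.47 and 4.62 in the control arm. It read 7.46 against 4.36 at 72 h and 7.04 against 4.58 at 120 h. XAF1, a pro-apoptotic partner of the caspase inhibitor XIAP, ranged over 5.32, 5.86 and 7.15 against 5.35, 5.52 and 5.62, with late pairs of 7.15 against 5.53 and 7.06 against 5.47. In both genes the late miR-124 arrays stood apart from the other 12 arrays, and the control arm stayed near its 4 h level.

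A fit of every gene without the signal limit gave 11 members called higher late, against 11.9% of all 19775 genes, and added TRIM22, XAF1 and IFI27. TRIM22 was higher by 2.78 ± 0.17 log2 (6.89-fold, adjusted p = 4.28e-05) and XAF1 by 1.60 ± 0.08 (3.03-fold, adjusted p = 2.7e-05). Both kept the call when only the late arrays were fitted (adjusted p = 0.00935 and 0.0129) and when each time was left out in turn, alternatives chosen after the data had been seen. IFI27, a mitochondrial protein of unsettled function, had a late ratio of 0.43 ± 0.10 (adjusted p = 0.0134), which was lost with only the late arrays (adjusted p = 0.173) and without the 120 h pair (adjusted p = 0.0895). IFI27 ranged over 5.31, 5.50 and 5.90 in the miR-124 arm and 5.35, 5.47 and 5.54 in the control arm. Within the miR-124 arm, TRIM22 rose by 2.65 and XAF1 by 1.66 log2 from the early to the late window (adjusted p = 4.7e-07 and 1.88e-06), in a fit where 13.6% of all genes were called higher. The other 2 probe sets of XAF1 gave smaller late ratios, 0.34 and 0.26 for one and 0.10 and 0.12 for the other.

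The remaining dim members gave low signals in both arms. RSAD2, the antiviral enzyme viperin, lay between 4.79 and 4.95 in the miR-124 arm and between 4.69 and 4.95 in the control arm. CXCL10, the chemokine that draws T cells, lay between 5.93 and 6.12 and between 5.87 and 6.12. IFI44 and IFI44L had late ratios from −0.21 to −0.09, and a further IFI44 probe set gave −0.01 and 0.02. The probe sets of IFI16, a DNA sensor, differed in sign, with 0.17 and 0.14 for the one used, −0.23 and −0.28 for another and −0.01 and 0.15 for the last. SAMD9 gave 0.05 and −0.03 with the probe set used, and 0.56 and 0.41 with a dimmer one whose highest signal was 4.22 in the miR-124 arm and 3.73 in the control arm. IFI6, a tested member, gave 0.29 at 72 h and −0.19 at 120 h.

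Earlier than 72 h few differences between the arms were called. Over all 7 pairs limma called 0 members, against 0.913% of all genes tested, and at an unadjusted p below 0.05 it counted 5 members higher and 1 lower, against 14.3% and 11.6% of all genes tested. In the early window 0 members and 0% of all genes were called, with 0 members at an unadjusted p below 0.05 in either direction, against 0.716% of all genes higher and 0.525% lower. In the middle window 0 members were called higher and 1, IFI35, lower, against 3.46% and 4.36% of all genes tested. IFI35 was lower by 0.30 ± 0.07 on the log2 scale there (log2 ratio −0.30, adjusted p = 0.0396), with control signals above miR-124 signals at 16, 24 and 32 h. That call was lost without any 1 of the pairs of 4, 8, 16, 24 or 32 h. The calls among all 13137 genes tested fell in the same fits. They went from 455 higher and 573 lower to between 0 and 255 higher and between 0 and 383 lower. Without the 72 h or the 120 h pair 3 members were called, and of all genes tested 1121 were called higher and 1077 lower. In the fit of every gene XAF1 was higher in the middle window by 0.33 ± 0.07 (adjusted p = 0.0282).

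Whether the difference between arms itself changed over time was tested by contrasts of the windows. From the early to the late window limma called a rise of the ratio for 3 of 21 members. It was 0.65 ± 0.16 for EIF2AK2 (adjusted p = 0.0387), 0.61 ± 0.11 for ISG15 (adjusted p = 0.0152) and 0.47 ± 0.12 for IRF9 (adjusted p = 0.0422). Of the 13137 genes tested 1088 were called with a rise and 433 with a fall, 11.6% for both directions together. From the middle to the late window the ratio rose for ISG15 by 0.59 ± 0.10 (adjusted p = 0.0227), which made 1 of 21. Among all genes tested 422 were called with a rise and 202 with a fall, 4.75% for both directions together. From the early to the middle window 0 of 21 members and 0% of all genes were called, with 0 members at an unadjusted p below 0.05, against 5.51% of all genes with a rise of the ratio and 4.02% with a fall. With only the arrays compared 0 members were called in either late contrast. The early to late count was 1 without the 24 h pair. The middle to late call was lost without the 16 h, 24 h or 32 h pair. Counts over all genes are not given for these fits, so a change in the members cannot be told from one in all genes. Without the 4 h, 8 h, 72 h or 120 h pair a window held 1 pair, so no count is taken from those fits here. For TRIM22 and XAF1, in the fit of every gene, the early to late rise of the ratio was 2.65 and 1.60 log2 (adjusted p = 0.000924 and 0.000503).

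**Figure D4:**
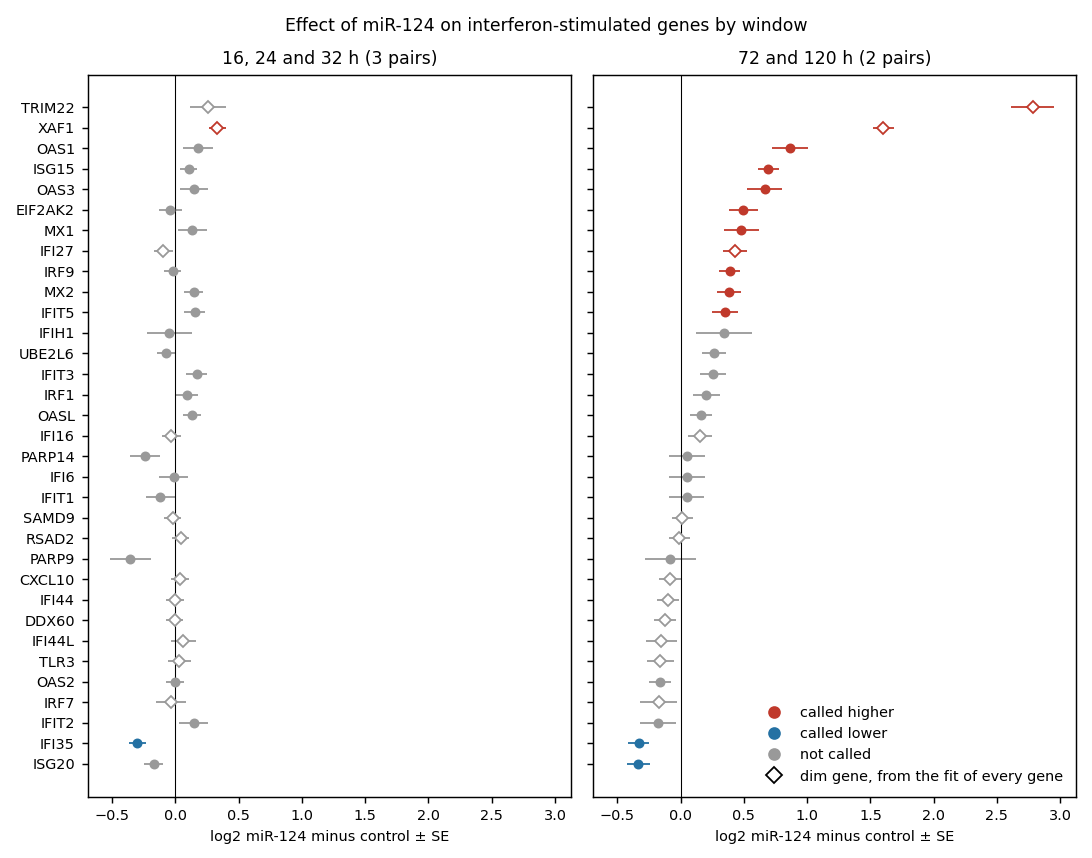
Fitted log2 ratio of miR-124 to control with its standard error (x axis) in the middle and late windows for the 33 measured members (rows); red marks a call higher, blue a call lower and grey no call, and open diamonds are dim genes from the fit of every gene. Late ratios run from −0.33 for ISG20 and IFI35 to 2.78 for TRIM22, and IFI35 is the blue point of the middle window.

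Upstream of these genes, none of 8 measured interferon genes passed the signal limit. IFNB1, the type I interferon made by most cell types, lay between 4.54 and 4.83 in the miR-124 arm and between 4.55 and 4.91 in the control arm. IFNA1 and IFNA2 had late ratios from −0.14 to −0.02, and IFNG, IFNK, IFNE, IFNL1 and IFNL2 were also below the limit. In the fit of every gene 0 of the 8 were called in the late window, where 2363 of 19775 genes were called higher and 1712 lower. Of 10 receptors and signalling genes tested, 2 were called higher late, the kinases JAK2 (0.64 ± 0.09) and JAK1 (0.32 ± 0.08). The 3 called lower were the interferon gamma receptor chain IFNGR1 (−0.52 ± 0.14), the transcription factor STAT3 (−0.50 ± 0.16) and the kinase TYK2 (−0.38 ± 0.10). The receptor chains IFNAR1, IFNAR2, IFNGR2 and IL10RB had late ratios of 0.08, −0.07, −0.06 and 0.02, and IFNLR1, which binds interferon lambda, −0.69 ± 0.22 (adjusted p = 0.0519). None of these 5 was called. Of all genes tested 16.4% were called higher late and 12.6% lower, and the 2 higher and 3 lower of 10 are to be read against those shares.

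Of 12 RNA sensors and adaptors tested, 2 were called higher late, the adaptor TRAF3 (1.07 ± 0.13) and the kinase TBK1 (0.67 ± 0.09), both of which act upstream of interferon transcription. The TRAF3 signal ranged over 8.04, 8.36 and 8.61 (lowest, median and highest) in the miR-124 arm and 7.36, 7.88 and 8.26 in the control arm. Its ratio thus also holds a low control signal. The Toll-like receptor adaptor MYD88 (−0.68 ± 0.21) and the mitochondrial adaptor MAVS (−0.41 ± 0.10) were called lower. The MYD88 ratio was −0.82, −0.74 and −0.86 at 16, 24 and 32 h, −1.22 at 72 h and −0.15 at 120 h. Of 9 inhibitors of interferon signalling, 1 was called, the phosphatase PTPN2, with a ratio of −0.31 ± 0.09. With 2 of 12 higher and 2 of 12 lower, the sensors and adaptors were called about as often as all genes tested (16.4% and 12.6%), and the inhibitors gave 0 of 9 higher and 1 of 9 lower. USP18, which removes ISG15 from proteins and blocks the type I receptor, was called lower in the middle window (−0.59 ± 0.13, adjusted p = 0.0363). In that window 1 of the 12 sensors and adaptors was called higher and 1 lower. Of the 10 receptors and signalling genes 0 were called higher and 1 lower there, against 3.46% and 4.36% of all genes tested.

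Other genes known to respond to interferon were called in both directions, in a window where 16.4% of all genes tested were called higher and 12.6% lower. Of 19 further effectors tested, 6 were called higher late, led by NMI (1.43 ± 0.10), the nuclear body protein SP100 (1.14 ± 0.11), the guanylate-binding protein GBP2 (1.09 ± 0.15) and SP110 (0.85), and PLSCR1 was called lower (−0.74 ± 0.09). The NMI signal ranged over 6.86, 7.14 and 7.56 (lowest, median and highest) in the miR-124 arm and 5.68, 6.83 and 7.24 in the control arm. Its ratio thus also holds a low control signal and is not the rise within the miR-124 arm. In the fit of every gene 9 of 28 effectors were called higher late and 1 lower, against 2363 and 1712 of 19775 genes. The dim GBP3 had late ratios of 2.87 and 1.77, and the dim GBP1 1.19 and 1.30. The GBP1 signal was highest at 8 h in both arms. It read 6.81 there in the miR-124 arm (median 6.64) and 7.01 in the control arm (median 5.57). The cause of this was not tested. Among 14 antigen presentation genes 6 were called higher late and 0 lower, with TAPBP (0.71), ERAP1 (0.61), ERAP2 (0.59) and HLA-B (0.54) at the head. Of 10 inflammatory targets of NF-kB, the chemokine CXCL8 (1.13 ± 0.20) and the deubiquitinase TNFAIP3 (0.78 ± 0.15) were called higher and the chemokine CCL20 (−0.63 ± 0.15) lower. The median late ratio was 0.20 for the further effectors, 0.22 for antigen presentation and −0.04 for the NF-kB targets, against −0.01 over all genes tested.

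Markers of other cells and the state of the RNA moved with the late window in part. Of the 8 hepatocyte markers, 1 late ratio lay above 0 and 1 marker was called lower, the fibrinogen chain FGB (−0.46 ± 0.09). Their late sums did not overlap, at 16.2 and 16.3 in the miR-124 arm against 16.4 and 16.5 in the control arm. Of 7 measured blood and immune markers 2 were bright enough to test, 1 of them (CD3D) was called higher late by 1.44 ± 0.25, and 3 of 7 late ratios lay above 0. The log2 of their summed signal ran from 12.5 to 12.8 in the miR-124 arm and from 12.6 to 13.0 in the control arm. Of 9 fibroblast and endothelial markers 7 were bright enough to test, and 2 of these 7 (ACTA2 and PECAM1) were called higher late, against 16.4% of all genes tested. In this list 3 of 9 late ratios lay above 0, and the late sums were 11.2 and 11.3 in the miR-124 arm against 10.6 and 10.8 in the control arm. Such sums follow the brightest gene most, here ACTA2 (mean log2 9.30) and among the blood markers LYZ (12.6). The 3′ minus 5′ difference of the ACTB control probe sets was 0.357 in the miR-124 arm and 0.237 in the control arm at 72 h, and 0.411 and 0.102 at 120 h. For GAPDH it was 0.301 and 0.145 at 72 h and 0.199 and 0.0311 at 120 h. The arms also stood apart before the late window, with ACTB values of 0.561 and 0.271 at 24 h, the highest of the miR-124 arm, and 0.418 and 0.278 at 32 h. Their part in the late results was not tested.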

How the data were processed

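Total RNA of HepG2 cells was hybridised to 14 single-colour arrays, 1 for each transfection (miR-124 or negative control) and time. The values used are the log2 signals that the authors deposited, which RMA made per the submitters' processing notes; RMA's version and settings are not given in the sources used here. Its table held 54675 probe sets with values from 2.93 to 14.4 and none missing. Of the probe sets other than 62 controls, 41091 had 1 gene symbol, 1801 several and 11721 none, in an annotation that can be old. Where several probe sets shared a symbol, the brightest on average represented the gene, which left 19775 genes. Genes with a mean above 6.19 (13137) were tested. Pairwise array correlations lay between 0.904 and 0.997, with no array a copy of another.

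Arrays of equal time were paired, since the labels give each transfection the same 7 times. Deviations of paired arrays from their arm means correlated by 0.206 to 0.480. Tests used limma 3.58.1 in R 4.3.3 (lmFit and eBayes), with time as a block for differences between arms and with 6 means (arm by window) for changes within an arm. P-values were Benjamini-Hochberg adjusted over all genes tested, and the procedure was tested on simulated data. Members called in any comparison, and the 6 with the largest overall ratio in size, are given in full; genes of other lists are named if called in a window, with at most 4 per list, and receptors and interferons always. Some values of dim members, of the dim genes GBP1 and GBP3 and of further probe sets were picked after they had been seen. The members and lists were chosen with earlier results of these data known. Alternatives were every gene tested, the mean of a gene's probe sets, arrays centred on their median, a mean-variance trend, no block, only the arrays compared, and each time left out. Promoter sequences and gene names come from RefSeq tables (GRCh38.p14); Python 3.11.15 and matplotlib 3.10.9 drew the figures.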

Additional observations from a re-analysis of the deposited data

Results flagged for a closer look

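The ratio of miR-124 to control differed between windows for 3 members by a test of the difference itself. From the early to the late window it changed by 0.65 log2 for EIF2AK2, by 0.47 for IRF9 and by 0.61 for ISG15, and from the middle to the late window by 0.59 for ISG15, each at an adjusted p below 0.05 in limma. Within the 7 arrays of either arm, 66 groups of values (33 members in each arm) were searched for an array far from the others, and 0 were found, although chance alone gives about 1 in 20. TRIM22 and XAF1, whose 2 late miR-124 arrays lie close together, cannot be found by a search for 1 distant array.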

How the results depend on the processing

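The 25 member calls were recomputed under 13 alternatives, or 12 where the fit had no block, and kept their direction in each. In 315 recomputations 241 kept the call and 74 lost it. The late count of 10 was 0 with only the arrays compared, where the spread comes from fewer arrays. Of all genes tested 340 were called higher and 129 lower in that fit, against 2161 and 1660 with all arrays. The middle window count of 1 was 2 with every gene tested, 0 with arrays centred on their median, 0 with no replicate block and 3 with only the arrays compared. In the same order, the genes called higher and lower among all tested were 457 and 584, 421 and 589, 376 and 490, and 1090 and 1074. The early to late count of 3 was 5 with every gene tested and 0 with only the arrays compared, and the middle to late count of 1 was 3 and 0. Without the replicate block of time, the calls lost were IFI35 in the middle window and IFIT5 in the late window. Leaving out each time in turn gave counts of 0 to 1 over all times, 0 to 3 in the middle window and 6 to 10 in the late window. It gave 0 to 6 for early to late, 0 to 5 for middle to late, 0 to 4 for control early to late, 0 to 1 for miR-124 early to middle and 5 to 11 for miR-124 early to late. Counts over all genes are not set beside these ranges, so they do not tell a change in the members from a change in all genes. Where no cause is given above, the cause was not tested. A single array per arm and time limits every value, and signals below the limit of 6.19 may hardly exceed background, so ratios of dim members may understate a change.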
